A study of Mus musculus with 9 samples.

Results

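The 58 genes described here encode the machinery with which a cell enters, carries out and leaves mitosis. They are a list of gene symbols: each row of the deposited count table whose Ensembl ID carries one of these symbols is a member, and all 58 were found among 53700 gene IDs. RNA was sequenced from C2C12, a line of mouse muscle precursor cells (myoblasts) that proliferates in serum and forms myotubes once serum is low. Control wells were starved for 12 h in OPTI-MEM, a reduced-serum medium, and collected at that point. Valine wells were starved in the same way and then kept for 36 h with 0.45 mM valine, an essential branched-chain amino acid. Val+PA wells were starved, kept for 24 h with 0.45 mM valine and then for 12 h with 75 µM palmitic acid, a saturated fatty acid. Each group has 3 libraries, from 3 wells drawn at random from 1 plate of 6 wells, and a p-value here reflects variation between wells that shared a plate. The Valine and Val+PA wells were collected 36 h later than the Control wells, on other plates, and no untreated well of that later time is used here. Time in culture, plate and valine can therefore not be told apart in any comparison with Control.

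Most mitosis genes are transcribed in a wave late in the cell cycle, so their RNA is abundant in a dividing population and scarce in resting or differentiated cells. In G1 and in resting cells the DREAM complex holds many of these promoters silent, and later MYBL2 and FOXM1 join the shared MuvB core and switch them on. The core binds a short promoter element called the CHR, which often lies near CCAAT boxes bound by NF-Y. Myoblasts leave the cell cycle before they fuse, and these genes are commonly used to follow that exit.

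All 58 genes passed the filter on low counts, with totals from 2140 to 167790 counts over the 9 libraries and never fewer than 156 counts in a library. Library totals ran from 26750226 to 35976589 counts. Of the myoblast markers Myod1, Myf5, Des, Cdh15, Chrna1, Itga7, Megf10 and Cdon, all 8 were detected, with a summed level of 3020 to 3220 CPM (counts scaled to a common library size after TMM adjustment) in Control, 4320 to 4530 in Valine and 4080 to 6030 in Val+PA. Between Valine and Control 4 of them rose and 1 fell, where 20.8% of all tested genes rose and 21.1% fell. The fibroblast markers Pdgfra, Dcn, Lum, Col1a1, Col3a1, Ly6a, Dpt, Fbln1, Pi16 and Gsn were also detected in full, and 8 of 10 rose. They summed to 1760 to 2400 CPM in Control, 4210 to 4350 in Valine and 3970 to 5610 in Val+PA. Adipocyte markers summed to at most 0.706 CPM in any library with Adipoq, Lep, Retn and Adrb3 at 0, endothelial markers to at most 3.55 CPM with Emcn at 0, and immune cell markers to at most 7.79 CPM with Itgam at 0. Of the few that could be tested between Valine and Control, the adipocyte marker did not pass, 2 of 2 endothelial markers rose, and 1 of 3 immune markers rose and 1 fell. The part of these marker levels in the results below was not tested. Control 3 and Val+PA 2 differed from the remaining libraries of the same treatment. For several results that rest on them, a fit without them or the range over all alternatives is given. Mitochondrially encoded RNAs, of which 5 of 13 fell, were uneven across libraries: mt-Nd2 was at 133 and 132 CPM in Control 1 and 2 and at 533 CPM in Control 3, and at 68.4, 176 and 177 CPM in the Val+PA libraries. In bulk RNA, fewer dividing cells and less of these RNAs in each cell cannot be told apart.

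Promoter stretches of 6 members are printed because they show the elements through which mitosis genes are known to be controlled. They are RefSeq sequences of the build GRCm38.p6, written 5′ to 3′ in the direction of the gene, from 170 bases before the annotated start to 30 after it. Capitals mark the CHR letters TTTGAA or the variant form TTCGAA, and the letters CCAAT of the CCAAT box. Both were searched on both strands, and a match on the other strand appears as its reverse complement. Cdk1, Cdc20, Bub1 and Kif11 hold both elements and fell, Ccnb1 fell and holds CCAAT boxes without CHR letters, and Cdc25b holds both and did not fall.
Cdk1 (chr10:69352883-69353082, minus strand): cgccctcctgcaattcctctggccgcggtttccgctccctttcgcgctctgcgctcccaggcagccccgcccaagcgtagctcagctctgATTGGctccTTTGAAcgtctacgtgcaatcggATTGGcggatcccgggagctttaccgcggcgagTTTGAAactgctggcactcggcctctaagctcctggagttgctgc
Cdc20 (chr4:118437314-118437513, minus strand): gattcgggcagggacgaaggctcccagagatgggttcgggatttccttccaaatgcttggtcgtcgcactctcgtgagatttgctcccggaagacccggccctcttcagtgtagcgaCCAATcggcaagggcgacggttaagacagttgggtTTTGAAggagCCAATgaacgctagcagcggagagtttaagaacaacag
Bub1 (chr2:127831830-127832029, minus strand): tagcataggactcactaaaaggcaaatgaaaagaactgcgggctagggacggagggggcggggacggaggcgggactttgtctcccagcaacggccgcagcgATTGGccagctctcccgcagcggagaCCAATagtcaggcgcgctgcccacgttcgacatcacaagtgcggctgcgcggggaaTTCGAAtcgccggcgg
Kif11 (chr19:37376212-37376411, plus strand): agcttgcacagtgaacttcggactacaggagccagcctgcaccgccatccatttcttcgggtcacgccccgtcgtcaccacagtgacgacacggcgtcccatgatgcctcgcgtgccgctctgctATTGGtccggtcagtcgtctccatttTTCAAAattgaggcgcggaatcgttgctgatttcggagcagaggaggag
Ccnb1 (chr13:100786457-100786656, minus strand): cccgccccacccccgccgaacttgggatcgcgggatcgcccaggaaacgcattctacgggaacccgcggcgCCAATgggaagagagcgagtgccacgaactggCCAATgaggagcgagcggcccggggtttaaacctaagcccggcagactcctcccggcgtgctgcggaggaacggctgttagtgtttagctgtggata
Cdc25b (chr2:131186778-131186977, plus strand): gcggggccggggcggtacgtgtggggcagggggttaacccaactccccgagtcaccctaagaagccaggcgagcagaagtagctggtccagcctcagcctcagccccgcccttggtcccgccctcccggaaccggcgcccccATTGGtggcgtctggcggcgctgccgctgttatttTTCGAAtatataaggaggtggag

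In the full window of 250 bases before to 50 after the start, 47 members had a promoter in the RefSeq table. The CHR letters were present in 38 of these 47 (80.9%), against 3772 of all 20516 promoters in the table (18.4%) and 14.3% of the promoters of tested genes. CCAAT-box letters were present in 34 of 47 (72.3%) against 38.2% of all promoters, and both together in 32 (68.1%) against 7.33%. The elements were searched separately, and neither holds the letters of the other. In 35 of the 38 members the nearest CHR match lay within 50 bases of the start, as at 15 bases before the start in Cdk1, 18 in Cdc20 and 19 in Kif11. With the window narrowed to 100 bases before the start, CHR letters were in 76.6% of members and 7.81% of all promoters, and CCAAT letters in 63.8% and 24.5%. The letters were also common in other mitosis and G2/M genes that are not members. Of 51 such promoters in the full window, 32 (62.7%) held CHR letters, 66.7% CCAAT letters and 45.1% both. Of the genes for anaphase-promoting complex core subunits and Fzr1, which also act in mitosis, 14.3% of 14 promoters held CHR letters, and of transport kinesins 7.69% of 13. The median log2 fold change from Control to Valine was -0.68 in the 38 with a CHR match and -0.68 in the 9 without. A match describes the sequence only, and the absence of one says only that these letters are not in the window.

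From Control to Valine, 50 of the 58 mitosis genes fell and none rose at an adjusted p of 0.05, and 8 did not pass the test. Among all 18415 tested genes 21.1% fell and 20.8% rose. The median log2 fold change of the members was -0.69, against -0.0049 over all tested genes, and 57 of 58 values were negative. The members ranged from -1.24 to 0.24, so the largest falls left a little over 40% of the Control level: the mean of Foxm1 in Valine was 42.3% of its mean in Control. For 55 members every Valine library lay below every Control library, which 29.2% of tested genes did. The exceptions were Cdc25b, Hmmr and Nusap1. The 8 members that did not pass were Ccnb2, Cdc25b, Cdc25c, Smc4, Cenpe, Spc25, Hmmr and Nusap1, of which all but Cdc25b, Cenpe, Smc4 and Nusap1 were named after their values were seen.

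The members together made up 6994, 7588 and 6952 CPM in the Control libraries, 4459, 4561 and 4533 CPM in the Valine libraries and 3894, 3432 and 3726 CPM in the Val+PA libraries. The 3 groups did not overlap in this sum, with Control highest and Val+PA lowest. The libraries of the Valine group were the most alike: the median coefficient of variation of a member was 3.27% in Valine, 9.45% in Control and 12.5% in Val+PA.

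**Figure D1:**
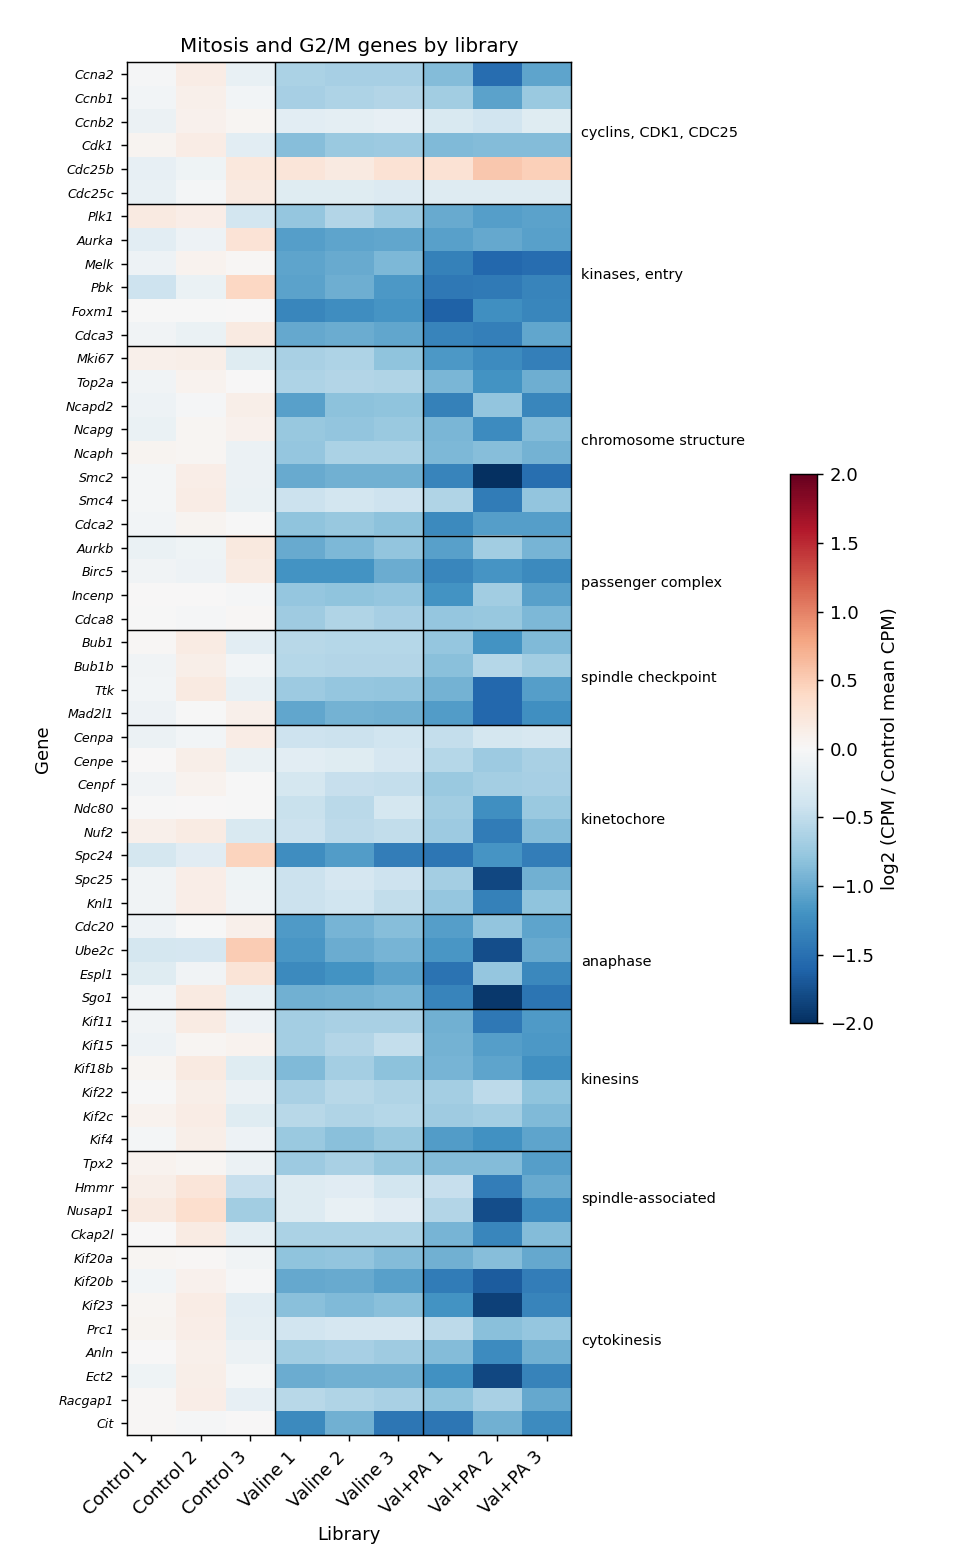
Level of each of the 58 genes (rows, by role) in each library (columns), as log2 of its CPM over the mean CPM of the 3 Control libraries; blue is lower and red is higher. All Valine and Val+PA columns are blue except in the row of Cdc25b, and Val+PA 2 is the darkest column for 30 of the 58 genes when all 9 libraries are compared.

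Cyclin B pairs with CDK1 to form the kinase that drives a cell into mitosis, and CDC25 phosphatases activate it. Cdk1 was at 352, 376 and 292 CPM in the Control libraries, at 188, 204 and 205 in Valine and at 185, 187 and 186 in Val+PA. The Valine and Control libraries did not overlap, and Cdk1 fell by 0.77 ± 0.11 (SE) on the log2 scale (adjusted p = 0.000122). Ccnb1, encoding cyclin B1, was at 279, 310 and 278 CPM in the Control libraries, at 183, 189 and 193 in Valine and at 178, 138 and 173 in Val+PA, and fell by 0.62 ± 0.11 (adjusted p = 0.00084). Its paralog Ccnb2 did not pass, with a log2 fold change of -0.19 ± 0.09 (adjusted p = 0.13). Ccna2, which encodes the cyclin of S and G2 phase, fell by 0.66 ± 0.15 (adjusted p = 0.00356). Both were named after their values were seen.

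Cdc25b stood at the other end of the range from Foxm1. This phosphatase gene, whose product acts on CDK1 at the centrosome early in mitotic entry, was at 95.3, 100.4 and 123 CPM in the Control libraries, at 126, 121 and 129 in Valine and at 131, 154 and 149 in Val+PA. Its Control 3 value overlapped the Valine range, and the log2 fold change from Control to Valine was 0.24 ± 0.12 (adjusted p = 0.121). Without Control 3 the adjusted p was 0.0154 and Cdc25b passed the test as higher, and over all alternatives the adjusted p ran from 0.000344 to 0.36. Cdc25c, named after its values were seen, had a log2 fold change of -0.26 ± 0.10 (adjusted p = 0.0675). Of the 6 genes of this group 3 fell.

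All 6 mitotic kinases and entry factors fell, with a median log2 fold change of -1.04, or -0.90 without Control 3. Foxm1, encoding the forkhead factor that drives G2/M transcription, was at 74.7, 75 and 75.3 CPM in the Control libraries, at 30.5, 31.7 and 33.1 in Valine and at 24.3, 32.2 and 30.3 in Val+PA. It fell by 1.24 ± 0.12 (adjusted p = 6.43e-06), which with the 1.24 of Spc24 was the largest fall among the members. Over all alternatives Foxm1 ran from -1.27 to -1.14 and Spc24 from -1.39 to -0.95, so which fell most was not stable. Plk1, encoding the Polo-like kinase needed for spindle formation and mitotic entry, was at 77.8, 75.5 and 53.6 CPM in the Control libraries, at 40.5, 46 and 41.5 in Valine and at 34.3, 32.2 and 32.7 in Val+PA. Control 3 was its lowest Control library, yet above all Valine libraries, and Plk1 fell by 0.69 ± 0.14 (adjusted p = 0.00161). Melk, a kinase gene active in proliferating cells, fell by 0.99 ± 0.11. The others, named after their values were seen, were Aurka, the centrosomal aurora kinase gene, which fell by 1.06 ± 0.12, Pbk by 1.06 ± 0.18 and Cdca3 by 1.01 ± 0.13. The log2 fold change of Pbk ran from -1.23 to -0.79 over all alternatives.

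Of 8 genes for chromosome condensation and structure 7 fell. Mki67, encoding the Ki-67 protein that coats mitotic chromosomes and marks proliferating cells, was at 106, 108 and 83.7 CPM in the Control libraries, at 63.2, 64.4 and 56.8 in Valine and at 44.8, 41.6 and 38.5 in Val+PA. The 3 groups did not overlap, and Mki67 fell by 0.69 ± 0.12 from Control to Valine (adjusted p = 0.000638). Top2a, encoding the topoisomerase that untangles sister DNA, was at 765, 845 and 810.2 CPM in the Control libraries, at 524, 539 and 532 in Valine and at 426, 353 and 411 in Val+PA. It had the highest level per length of the members in Control and fell by 0.60 ± 0.10 (adjusted p = 0.000413).

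SMC2 and SMC4 are the paired ATPase arms of condensin. Smc2 was at 196, 222 and 187 CPM in the Control libraries, at 101, 104 and 104 in Valine and at 80.5, 39.5 and 70.9 in Val+PA, and fell by 0.98 ± 0.20 (adjusted p = 0.00206). Smc4 was at 152, 173 and 143 CPM in the Control libraries, at 116, 121 and 118 in Valine and at 103, 58.9 and 90.1 in Val+PA. Its Valine libraries all lay below its Control libraries, but the log2 fold change of -0.40 ± 0.17 did not pass the test (adjusted p = 0.0729). The condensin subunit genes Ncapd2, Ncapg and Ncaph, named after their values were seen, fell by 0.90 ± 0.15, 0.77 ± 0.12 and 0.68 ± 0.10.

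The chromosomal passenger complex corrects faulty spindle attachments and later directs the cleavage furrow, and all 4 of its genes fell. Birc5, encoding survivin, which brings the complex to centromeres, was at 86.3, 84.9 and 102 CPM in the Control libraries, at 39.8, 39.6 and 45.9 in Valine and at 36.9, 40.3 and 37.7 in Val+PA. It fell by 1.12 ± 0.11 (adjusted p = 9.5e-06). Aurkb, the kinase gene of the complex, was at 34, 35.2 and 42.8 CPM in the Control libraries, at 18.5, 20.2 and 21.5 in Valine and at 17.6, 23.2 and 19.6 in Val+PA, a fall of 0.90 ± 0.14 (adjusted p = 0.000264). Cdca8, encoding borealin, had the smallest fall of the complex, 0.66 ± 0.10 (adjusted p = 0.000342).

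The spindle checkpoint holds the cell in metaphase until every chromosome is attached, and all 4 of its genes fell. Mad2l1, whose product sequesters CDC20, was at 119, 126 and 136 CPM in the Control libraries, at 61.6, 65.9 and 65.2 in Valine and at 58.2, 42.7 and 53.9 in Val+PA, and fell by 0.98 ± 0.12 (adjusted p = 5.37e-05). Bub1, a kinase gene of the checkpoint, was at 185, 203 and 158 CPM in the Control libraries, at 123, 123 and 123 in Valine and at 107, 79.2 and 99.1 in Val+PA. Its 3 Valine libraries were nearly identical and below all Control libraries, and it fell by 0.56 ± 0.13 (adjusted p = 0.00369).

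Kinetochore genes had a median log2 fold change of -0.43, close to the -0.44 of the cyclin group, and 6 of 8 fell. Which of these groups changed less was not stable: without Control 3 the median was -0.43 in kinetochore genes and -0.40 in the cyclin group. Among the kinetochore genes that fell, the call held in 12 of 21 alternatives for Nuf2, 14 for Knl1 and 15 for Ndc80. These genes were named after their values were seen. Spc24, an NDC80 complex subunit gene, was the least abundant by counts, at 9.84, 10.7 and 17.1 CPM in the Control libraries, at 5.30, 5.76 and 4.84 in Valine and at 4.59, 5.54 and 4.82 in Val+PA. It fell by 1.24 ± 0.20 (adjusted p = 0.000436), and its Control 3 value was the highest. Over all alternatives the log2 fold change of Spc24 ran from -1.39 to -0.95. Its partner gene in the same complex, Spc25, had a log2 fold change of -0.39 ± 0.21 (adjusted p = 0.164). Cenpa, encoding the histone variant that marks centromeres, was at 104, 108 and 125 CPM in the Control libraries, at 84.3, 83.5 and 84.8 in Valine and at 81, 87.6 and 89.7 in Val+PA, and fell by 0.41 ± 0.10 (adjusted p = 0.00544). Cenpe, a kinetochore motor gene, was at 47, 50.8 and 42.7 CPM in the Control libraries, at 40.5, 39.4 and 37.1 in Valine and at 31.4, 28.3 and 30 in Val+PA. Its log2 fold change of -0.26 ± 0.10 did not pass (adjusted p = 0.06).

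All 4 genes of anaphase promotion and sister separation fell, with a median of -0.99. Cdc20, encoding the activator of the anaphase-promoting complex, was at 132, 140.2 and 150.3 CPM in the Control libraries, at 63.8, 74.2 and 77.9 in Valine and at 65.6, 81.4 and 67.5 in Val+PA, and fell by 0.97 ± 0.12 (adjusted p = 5.12e-05). Espl1, encoding separase, the protease that opens cohesin rings, was at 126, 141 and 179 CPM in the Control libraries, at 61.5, 64.7 and 70.4 in Valine and at 53.1, 86.5 and 60.5 in Val+PA. It fell by 1.18 ± 0.18 (adjusted p = 0.00024). Sgo1, encoding shugoshin, which protects centromeric cohesin, fell by 0.94 ± 0.15 (adjusted p = 0.000401).

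In the group of spindle and chromosome kinesins 6 of 6 fell, with log2 fold changes from -0.79 to -0.58, while the kinesin genes Cenpe, Kif20a, Kif20b and Kif23 are described with the kinetochore and cytokinesis. Kif11, encoding the motor that pushes the spindle poles apart, was at 185, 218 and 183 CPM in the Control libraries, at 121, 124 and 125 in Valine and at 99.9, 72.4 and 88.7 in Val+PA, and fell by 0.66 ± 0.12 (adjusted p = 0.00111). Kif18b, a gene for a motor that shortens astral microtubules, fell by 0.79 ± 0.14 (adjusted p = 0.000733), and Kif2c, encoding a microtubule-depolymerizing kinesin at centromeres, by 0.58 ± 0.12 (adjusted p = 0.00178).

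Of the 4 spindle-associated genes 2 fell. Tpx2, whose product activates aurora A on the spindle, was at 118, 115 and 103 CPM in the Control libraries, at 67.4, 71.3 and 66.5 in Valine and at 61.3, 61.2 and 52.4 in Val+PA, and fell by 0.71 ± 0.10 (adjusted p = 0.000175). Nusap1, encoding a microtubule-bundling protein, was at 47.7, 53.3 and 26 CPM in the Control libraries, at 35.5, 38.3 and 36.2 in Valine and at 28.2, 12.3 and 17.7 in Val+PA. Control 3 lay below all Valine libraries, and the log2 fold change was -0.21 ± 0.28 (adjusted p = 0.581). With Control 3 and Val+PA 2 both left out, Nusap1 passed the test as lower, with an adjusted p of 0.00579, the lowest over its alternatives, which reached 0.978.

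All 8 genes of the central spindle and cytokinesis fell. Cit, encoding citron kinase of the midbody, was at 41.7, 40.6 and 41.2 CPM in the Control libraries, at 17, 21.2 and 15.1 in Valine and at 15.1, 21.1 and 17.3 in Val+PA, a fall of 1.21 ± 0.15 (adjusted p = 6.13e-05). Prc1, encoding the protein that bundles antiparallel microtubules of the central spindle, was at 153, 161 and 129 CPM in the Control libraries, at 114, 118 and 117 in Valine and at 103, 82.4 and 86.4 in Val+PA. Its fall of 0.35 ± 0.12 had an adjusted p of 0.0291, and the call held in 13 of 21 alternatives, with an adjusted p up to 0.112. Among the losses were the fits without Control 1, without Control 2 and without any one of the Valine libraries. Between these, Kif20b fell by 1.04 ± 0.11 (adjusted p = 1.31e-05), and Kif20a, Kif23, Anln, Ect2 and Racgap1, named after their values were seen, fell by 0.60 to 0.97.

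**Figure D2:**
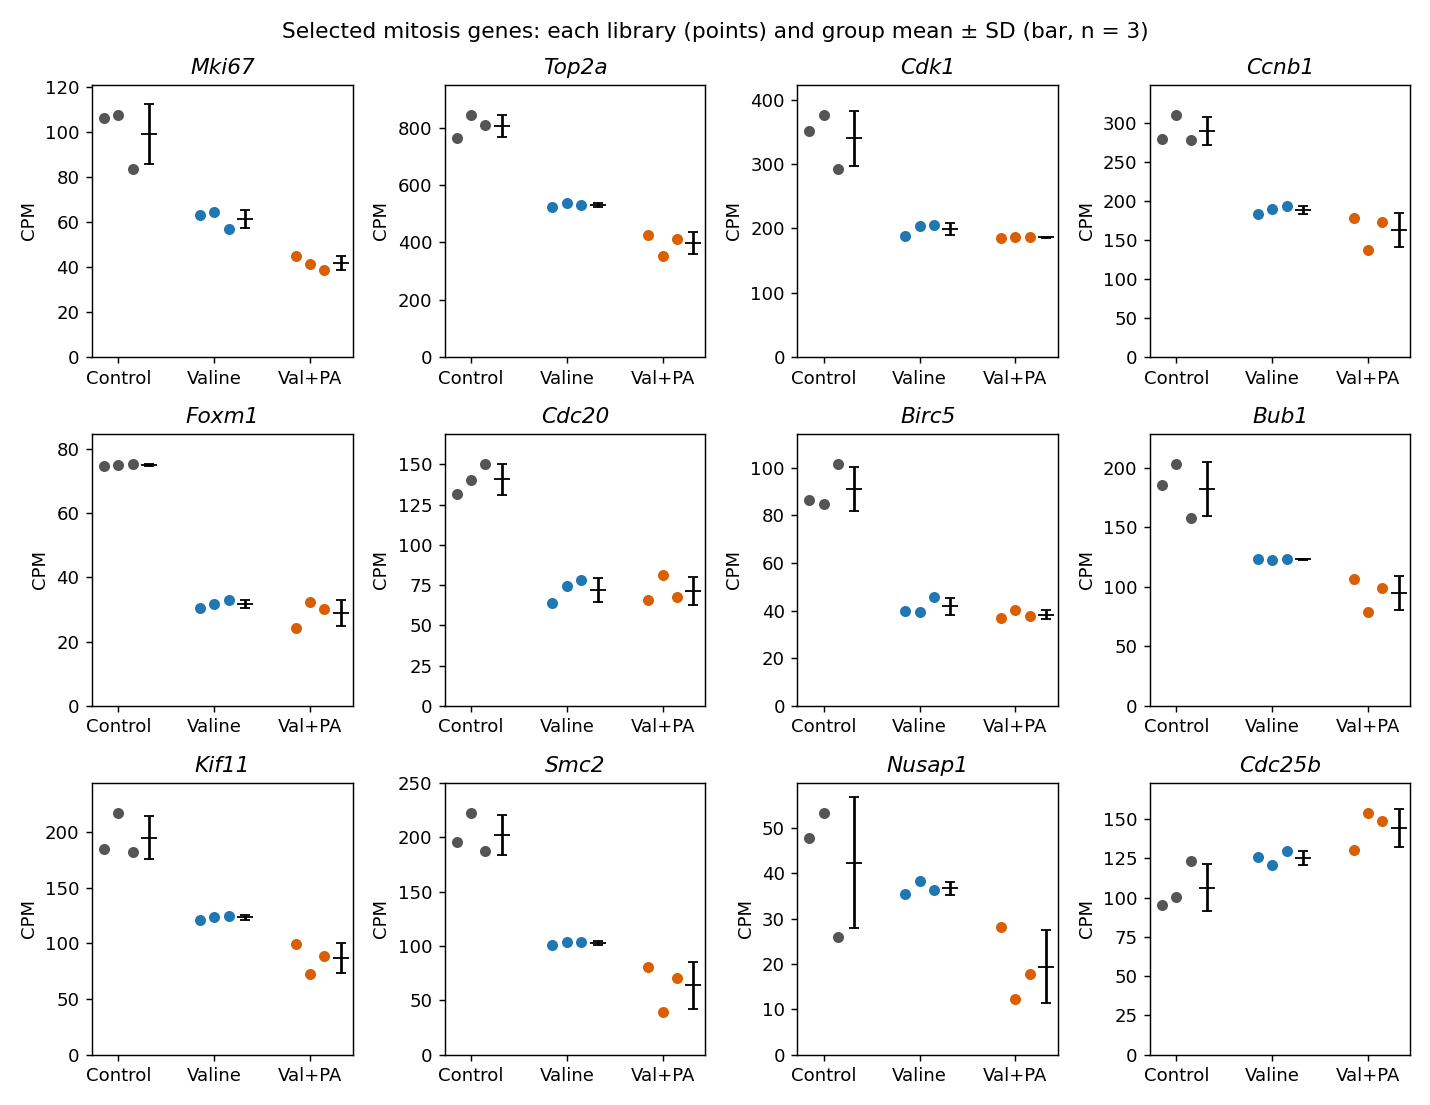
CPM after TMM scaling (vertical axes, from 0) of 12 members in each library (points, 3 a group), with the group mean and SD beside them. Mki67, Top2a, Bub1, Kif11 and Smc2 lie lower in Valine than in Control and lower again in Val+PA without overlap, Cdc20 and Birc5 overlap between Valine and Val+PA, and the Val+PA libraries of Cdc25b lie above its Valine libraries.

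On the deposited signal, which is scaled for gene length and so lets genes be compared, Top2a led the Control group at 183 ± 12 (SD, n = 3), followed by Cdc20 at 154 ± 8.2. Cdk1 at 141 ± 22, Ccnb1 at 140.2 ± 13, Ccna2 at 138 ± 18 and Aurka at 132 ± 21 followed, and these neighbours did not differ beyond their spread. Cit at 5.13 ± 0.14 and Kif15 at 7.60 ± 0.49 had the lowest levels. The order of the means differed between the groups: Ccnb2 ranked 7 in Control at 113 ± 9.6, 2 in Valine at 102 ± 1.3 and 1 in Val+PA at 93.3 ± 4.8. Cdc25b moved from rank 16 at 58.2 ± 6.7 to rank 7 at 70.4 ± 2.2 and rank 3 at 80.9 ± 7.1. In Val+PA these ranks did not differ from their neighbours beyond the spread. Top2a followed Ccnb2 at 91.9 ± 9, and Ccnb1 at 80.55 ± 11 and Cdc20 at 79.9 ± 9.5 followed Cdc25b.

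Related gene lists are set beside the share of all tested genes that fell (21.1%) or rose (20.8%) from Control to Valine. Of 60 other mitosis and G2/M genes that are not members, 51 fell and none rose, with a median log2 fold change of -0.72. They ran from Trip13, encoding an ATPase that resets the spindle checkpoint, at -1.59 ± 0.12 (adjusted p = 1.6e-06) to Aspm, a spindle pole gene, at -0.30 ± 0.10 (adjusted p = 0.0315) among those that fell. Of 15 other genes of the anaphase-promoting complex, 14 core subunits and the activator gene Fzr1, 5 fell and 1 rose, with a median of -0.11. Fzr1, named after its values were seen, fell by 0.40 ± 0.12 (adjusted p = 0.0159), and of the core subunits alone 4 fell and 1 rose, with a median of -0.09. Among them Anapc15 fell by 0.89 ± 0.21 (adjusted p = 0.00472), while Anapc13 rose, with a log2 fold change of 0.96 ± 0.22 (adjusted p = 0.00431), both at under 8 CPM. Of 10 cohesin genes 3 fell, with a median of -0.04, from Stag1 at -0.52 ± 0.12 (adjusted p = 0.00409) to Smc1a at -0.36 ± 0.11 (adjusted p = 0.0237).

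Transport kinesins, which carry cargo in interphase, were mostly not lower: 8 of 18 rose, 1 fell and the median log2 fold change was 0.27. Kif21b rose, from 8.88, 7.60 and 6.85 CPM in Control to 30.8, 32 and 29.2 in Valine (log2 fold change 1.98 ± 0.14, adjusted p = 9.33e-07). Kif1c fell by 0.48 ± 0.13 (adjusted p = 0.00983).

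Genes for the regulators above the mitosis genes were mixed. Of 13 MuvB, MYB, DREAM and pocket protein genes 7 fell and 2 rose. Mybl2, encoding the MYB factor that activates these promoters with MuvB, was at 35.1, 34.7 and 31.1 CPM in the Control libraries, at 6.06, 6.40 and 6.95 in Valine and at 5.37, 6.47 and 3.83 in Val+PA. It fell by 2.38 ± 0.17 (adjusted p = 9.28e-07), more than any member, and Tfdp2, encoding a partner of E2F factors, rose by a log2 fold change of 0.63 ± 0.13 (adjusted p = 0.00246). Of the 9 genes that restrain CDK1 or regulate mitotic phosphatases, 4 fell, from Chek1 at -1.41 ± 0.12 (adjusted p = 2.87e-06) to Chek2 at -0.32 ± 0.11 (adjusted p = 0.0298).

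Of 9 genes in the list of G1 cyclins and CDKs, which also holds the phosphatase gene Cdc25a, 6 fell and 1 rose. Their median log2 fold change was -1.12, a larger fall than the -0.69 of the members. Ccne2, a cyclin gene of S-phase entry, fell by 2.63 ± 0.21 (adjusted p = 1.94e-06), and Ccnd2, a D-type cyclin gene, rose by a log2 fold change of 0.78 ± 0.09 (adjusted p = 4.35e-05). Of 5 CDK inhibitor genes tested 2 rose and 1 fell. Cdkn1c, at 0.27 to 0.56 CPM in Control and 1.16 to 1.20 in Valine, rose by a log2 fold change of 1.44 ± 0.39 (adjusted p = 0.0114), and Cdkn2d fell by 0.70 ± 0.17 (adjusted p = 0.00563). Cdkn1b, encoding p27 and named after its values were seen, was at 56.3, 63.7 and 57.2 CPM in Control and 108, 111 and 108 in Valine, a rise of 0.88 ± 0.13 (adjusted p = 0.000231).

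**Figure D3:**
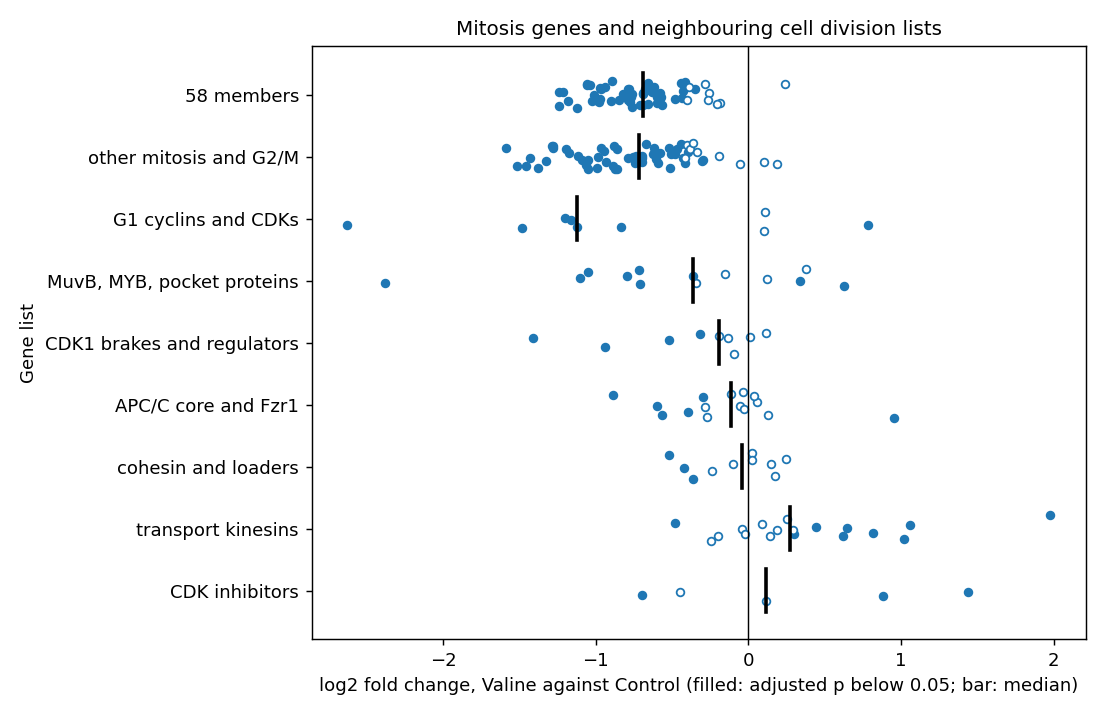
Log2 fold change from Control to Valine (horizontal axis) of each tested gene in 9 lists, with filled points past an adjusted p of 0.05 and bars at the median. The members and the other mitosis genes lie around -0.69 and -0.72, and the G1 cyclins and CDKs (with Cdc25a) lower, at -1.12. The anaphase-promoting complex list (core and Fzr1) lies at -0.11, cohesin at -0.04, and transport kinesins at 0.27.

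The comparison of Val+PA with Valine concerns palmitic acid in the last 12 h, in wells of the same age by the labels. The Val+PA wells had 24 h of valine where the Valine wells had 36 h, and they were on another plate, so these differences and palmitic acid cannot be told apart. No member passed the edgeR test, and neither did any other gene (0% called). The smallest adjusted p of a member was 0.192, for Mki67, and of any gene 0.168. At an unadjusted p under 0.05 there were 30 members, all lower in Val+PA, where 5.47% of all tested genes were lower at that level and 13.2% differed in either direction. DESeq2 called 9 members lower (0.512% of genes), limma-voom called 0, and edgeR without the filter on low counts called 15 (0.867%). The median log2 fold change of the members was -0.29, against 0.00 over all genes, and 52 of 58 values were negative. For 41 members every Val+PA library lay below every Valine library, which 12% of tested genes did, and for Cdc25b alone every Val+PA library lay above, which 12.6% did.

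The 6 members with the smallest p were Mki67 at -0.56 ± 0.12 (adjusted p = 0.192), Melk at -0.49 ± 0.11 (0.193), Top2a at -0.42 ± 0.10 (0.197), Kif15 at -0.48 ± 0.11 (0.197), Kif11 at -0.50 ± 0.12 (0.208) and Kif20b at -0.43 ± 0.11 (0.218). Melk, encoding a kinase of proliferating cells, was at 28.2, 29.2 and 31.7 CPM in Valine and 23.1, 19.9 and 20.5 in Val+PA. Kif15, encoding another motor that keeps the spindle open, was at 25.5, 27.3 and 29.4 CPM in Valine and 21.4, 19 and 18.6 in Val+PA. Kif20b, whose product acts in the completion of cytokinesis, was at 36.9, 37.3 and 35.4 CPM in Valine and 28.6, 23.8 and 29 in Val+PA. In all 6 genes every Val+PA library lay below every Valine library, as in 12% of tested genes. The 6 were picked by p in this same comparison, so this adds no separate evidence. With the GC trend of each library removed, the values were -0.51 for Mki67, -0.41 for Melk and -0.28 for Top2a. In that fit they were -0.31 for Kif15, -0.34 for Kif11 and -0.18 for Kif20b.

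Other members had values near 0. Aurka was at 76.6, 78.8 and 80 CPM in Valine and 77.5, 80.9 and 77.5 in Val+PA, a log2 fold change of 0.00 ± 0.12 (adjusted p = 0.992). The same held for Cdc20 (-0.01 ± 0.12), Cit (0.00 ± 0.15), Aurkb (0.00 ± 0.14), Cenpa (0.03 ± 0.10) and Espl1 (0.03 ± 0.18). The values of the GC-rich members among these moved with Val+PA 2: without it Espl1 was at -0.20, Cit at -0.14, Cdc20 at -0.11 and Aurkb at -0.11, and with the GC trend of each library removed Espl1 was at -0.18 and Cdc20 at -0.19. By role group, the median was -0.13 in the passenger complex and in anaphase promotion, -0.40 in kinetochore and chromosome structure genes and -0.50 in the spindle-associated genes. The order of the groups was not stable: with the GC trend removed the median was -0.23 in kinetochore genes and -0.29 in anaphase promotion.

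**Figure D4:**
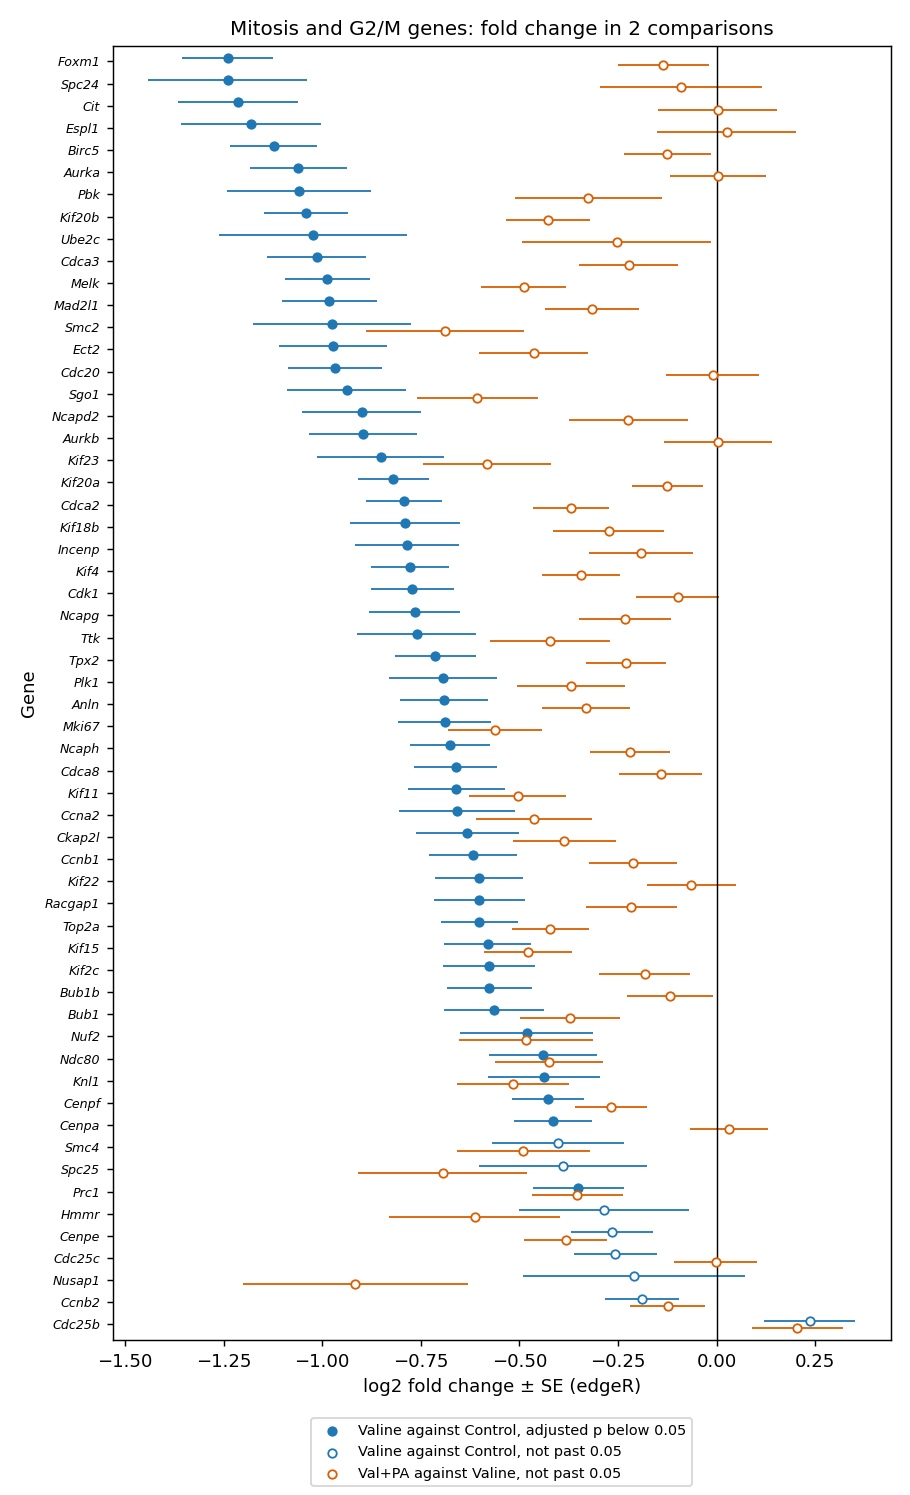
Log2 fold change with its SE for each member, ordered by the value for Valine against Control (blue) with Val+PA against Valine (orange); filled points passed an adjusted p of 0.05. No orange point is filled, and 52 of the 58 lie below 0. The Valine libraries enter both comparisons.

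Val+PA 2 was low in the members with AT-rich transcripts: of 24 members with under 45% GC in the longest transcript, 23 were lower in Val+PA 2 than in the mean of Val+PA 1 and 3, with a median log2 deviation of -0.39. Of the 34 members with more GC, 10 were lower, with a median of 0.09. The largest deviations were those of Spc25 at -0.998, Smc2 at -0.93, Nusap1 at -0.86 and Smc4 at -0.71. Ube2c came next at -0.695, although its transcript has 55.5% GC, while Espl1, with 56.1% GC, was at 0.61. Across genes, the deviation of this library and transcript GC had a Pearson r of 0.69 and a Spearman rho of 0.74 over the 58 members, and 0.75 and 0.77 over 12348 genes with a mean of at least 2 CPM. All points come from the same 3 libraries, and genes are not independent replicates. For Control 3 the values were 0.33 and 0.31 over the members. The part of GC in the fold changes was not tested beyond the removal of the trend described next.

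Leaving out Control 3 and Val+PA 2 together, an alternative chosen after the data were seen, 29 members fell from Valine to Val+PA and none rose, where 1.55% of genes fell. Mki67 led with an adjusted p of 0.00217, where its alternatives ran up to 0.665, followed by Smc2 (0.00453), Top2a (0.0049) and Ncapd2 (0.0103). They were 6 of 8 genes of chromosome structure, 6 of 8 of cytokinesis, 3 of 4 spindle-associated genes, 5 of 8 of the kinetochore and 3 of 6 in the kinesin group. The rest were 2 of 6 kinases and entry factors, 1 of 6 in the cyclin group and 1 of 4 each in the passenger complex, the checkpoint and anaphase promotion. Leaving out only 1 library at a time gave 0 calls in each of the 9 cases, with 27 to 34 members at an unadjusted p under 0.05. Without Val+PA 2 alone the median was -0.27, with 34 members at that level. With the GC trend of each library removed, also added later, 0 members passed, with 5 genes higher and 2 lower (0.0109%). In that fit the median of the members was -0.23, with 54 of 58 values negative and 34 at an unadjusted p under 0.05.

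**Figure D5:**
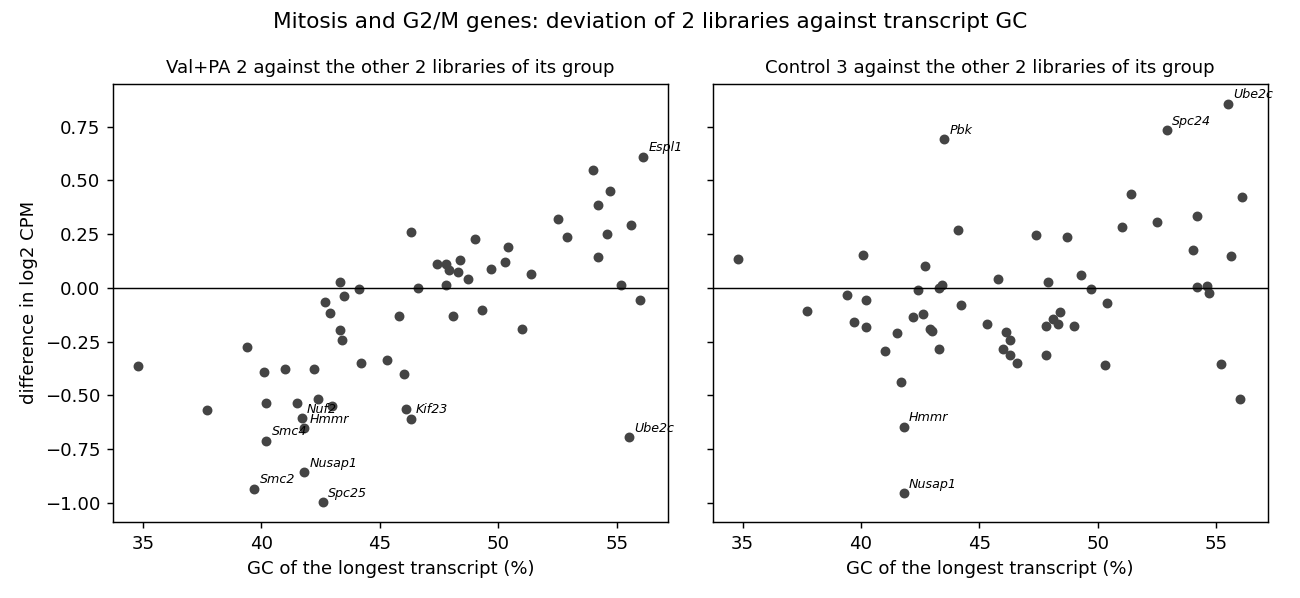
Difference in log2 CPM of 1 library from the mean of the other 2 of its group (vertical axis) against the GC of the longest transcript in percent (horizontal axis), 1 point per member. In Val+PA 2 (left) 23 of 24 members under 45% GC lie below 0; in Control 3 (right) the points spread more evenly, with Nusap1 and Hmmr lowest.

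Against Control, Val+PA shares the Control libraries with the first comparison and so adds no separate evidence on them. There 56 members fell, Cdc25b rose and Cdc25c did not pass, where 18.8% of all tested genes fell and 20.4% rose. The median log2 fold change of the members was -1.02. Every Val+PA library lay below every Control library for 55 members, against 22.1% of tested genes. Values for Mki67 were -0.69 from Control to Valine and -1.25 from Control to Val+PA, for Top2a -0.60 and -1.02, for Kif11 -0.66 and -1.16, and for Smc2 -0.98 and -1.66. For Cdc20 they were -0.97 and -0.98, for Cit -1.21 and -1.21, and for Cenpa -0.41 and -0.38. With Control 3 and Val+PA 2 both left out, Val+PA against Control was at -1.36 for Mki67, -0.94 for Top2a, -1.09 for Kif11 and -1.46 for Smc2. It was at -1.03 for Cdc20, -1.35 for Cit and -0.31 for Cenpa. In that fit Val+PA against Valine was at -0.44 for Smc2, -0.12 for Cdc20 and -0.14 for Cit. Cdc25b had 0.24 and 0.44 ± 0.12, the second with an adjusted p of 0.00944, and Ccnb2 fell by 0.31 ± 0.09 from Control to Val+PA (adjusted p = 0.0204), a call lost without the filter on low counts, with the 2 groups alone and without Control 2 (adjusted p up to 0.0972).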

How the data were processed

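RNA was measured in 9 C2C12 libraries, 3 in each group. The submitters' processing notes name HISAT2, featureCounts, DESeq2 and GRCm38. Versions, annotation release and strand setting were not given in the sources used here. For each library, the authors deposited a table of read counts per gene, not normalized, and a table of normalized signal. Tested on the values, the deposited signal is each count times a gene factor and a library factor. The 3 Val+PA columns carry a shortened code and were matched by it.

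Symbols came from GENCODE M21, which matched 52093 IDs (97%). Counts were fitted with edgeR 4.0.16 in R 4.3.3 (TMM factors, filterByExpr, quasi-likelihood test, 3 group means, all 9 libraries), two-sided, with Benjamini-Hochberg adjustment over 18415 genes at 0.05. A standard error (SE) is the absolute log2 fold change over the square root of F. A count was worth 0.0271 to 0.0403 CPM. Counting cannot separate near-identical copies, so single genes with such copies are uncertain.

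Members and lists were chosen with earlier results of these data known. Named genes are the members with the extreme changes in each role group, 13 fixed members, the 6 members with the smallest p for Val+PA against Valine, and the extreme called genes of each other list. Replicate numbers did not pair the libraries: deviations of the 9 same-numbered pairs had r from -0.27 to 0.16. No libraries were duplicates. Methods were tested on simulated data. Alternatives were DESeq2 1.42.0, limma-voom (limma 3.58.1), other scalings and filters, fits of only the compared groups, a replicate block, each library left out in turn, and limma on log2 of the signal plus 1 or 0.1. Another 2 were added after the data were seen.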

Additional observations from a re-analysis of the deposited data

How the results depend on the processing

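From Control to Valine, 46 of the 50 members that fell passed under all 21 alternatives. Ndc80, Nuf2, Knl1 and Prc1 lost the call in some, and 7 of the 8 others passed in some, Ccnb2 in none. The number that fell ran from 46 to 54 with 1 library left out, and the number that rose from 0 to 1, the 1 being Cdc25b without Control 3. It was also 1 (Cdc25b) with library size alone, which moved the median of all genes to 0.07, with Control 3 and Val+PA 2 both left out, and with the GC trend removed. Cdc25b had an adjusted p of 0.0297, 0.000344 and 0.0208 in these, and between 0.000344 and 0.36 over all alternatives. From Control to Val+PA, Ccnb2 passed in 18 of 21. Chek2, Aspm, Smc1a and mt-Atp6 lost their calls in several settings. For Val+PA against Valine, no filter gave 476 genes higher and 287 lower (15 members lower), DESeq2 122 and 71 (9), both libraries left out 312 and 292 (29), and the GC trend removed 5 and 2 (0 members). The other alternatives gave 0. The cause of these differences was not tested. With the replicate block 50 members fell from Control to Valine, 0 from Valine to Val+PA and 56 from Control to Val+PA, so it changed none of these counts. The log2 fold change of Cfd, at under 1 CPM, was -0.17, and ran from -0.38 without Valine 3 to 0.18 without Valine 1. Depth does not limit the members, which had at least 156 counts in each library.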

Other observations

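The members with the widest spread among the Control libraries were Ube2c, Nusap1, Spc24, Pbk and Hmmr, with coefficients of variation of 36.9%, 34%, 31.4%, 30.2% and 24.3%, and in each Control 3 stood apart. Ube2c, Pbk and Hmmr were named after their values were seen. Hmmr, encoding a spindle-associated hyaluronan receptor, was at 124, 135 and 82.5 CPM in Control, and Pbk, encoding a mitotic kinase, at 16, 19.4 and 28.5. Ube2c, encoding the ubiquitin-conjugating enzyme of the anaphase-promoting complex, was at 38.5, 39.1 and 70.4 CPM in Control and fell by 1.02 ± 0.24 from Control to Valine (adjusted p = 0.00473), or by 0.68 without Control 3 (adjusted p = 0.0138). Over the members, Control 3 was the lowest Control library for 31 and the highest for 18.

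Among the marker lists, the called genes at the ends of each range from Control to Valine were as follows. Of the myoblast markers, Myf5, a myogenic factor gene, rose with a log2 fold change of 1.02 ± 0.12 (adjusted p = 3.53e-05) and Megf10 fell by 0.87 ± 0.09 (adjusted p = 1.18e-05). Of the fibroblast markers, Fbln1 rose with a log2 fold change of 0.52 ± 0.10 (adjusted p = 0.00122), and Lum, encoding the proteoglycan lumican, was at a mean of 0.0792 CPM in Control, a few counts per library, and 6.60 CPM in Valine (adjusted p = 3.08e-06). At low levels, Cd68 rose from a mean of 1.77 to 5.11 CPM, Kdr from 0.377 to 1.35 and Tek from 0.416 to 1.01, and Csf1r fell from 0.77 to 0.218. Of the mitochondrially encoded genes, mt-Nd2 fell by 2.19 ± 0.50 (adjusted p = 0.00426) and mt-Atp6 by 1.25 ± 0.40 (adjusted p = 0.0259), both highest in Control 3.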
